A study of Mus musculus with 2 samples.

Results

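Erythroid and leukocyte miRNAs were described in the embryonic mouse forebrain. The set holds 6 miRNA genes chosen by name for the blood cells they are known from, out of 1973 genes with a count row. Mir451a and Mir144 are known from red blood cells, and Mir342, Mir155, Mir150 and Mir223 from leukocytes. All 6 had a row, and all 6 had at least 1 count in each library. The tissue was forebrain of strain B6NCrl, taken on day 10.5 of embryonic development from healthy embryos of pooled sex. The 2 libraries form 1 group with no treatment, mutation or control group. Replicate 1 came from 69 pooled embryos and replicate 2 from 51. The spread between them is therefore the spread between pools and not between embryos. The libraries gave 3256070 and 3574530 counts on the strand of a gene out of 8559330 and 9664755 reads. Reads given to no gene because they mapped to several places made up 30.1% of replicate 1 and 28.8% of replicate 2. Levels of the members are shares of the counted reads only.

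MicroRNAs are short RNAs cut from hairpin precursors, and they repress messenger RNAs that pair with their seed, the bases near the 5′ end. At this stage the blood in the vessels of the brain consists mostly of primitive red cells from the yolk sac, and macrophage precursors from the same source enter the neural tissue as the ancestors of microglia. The libraries were made from whole tissue, so fewer cells of a type and less RNA per cell cannot be told apart. The labels name no cell sorting, and the cell of origin of each miRNA was not tested.

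The mature sequences are shown because they identify what each gene makes and which members could share targets. They are RefSeq sequences on build GRCm38.p6, written 5′ to 3′, with the seed (bases 2 to 8) in capitals. RefSeq's table gave 10 mature sequences for the 6 genes. For Mir150 it gave the 3p arm only, so what that gene makes is shown in part.
mmu-miR-451a: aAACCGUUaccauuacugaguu
mmu-miR-144-3p: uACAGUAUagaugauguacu
mmu-miR-144-5p: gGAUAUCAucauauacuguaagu
mmu-miR-342-3p: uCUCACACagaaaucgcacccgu
mmu-miR-342-5p: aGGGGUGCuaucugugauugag
mmu-miR-155-5p: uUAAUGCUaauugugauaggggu
mmu-miR-155-3p: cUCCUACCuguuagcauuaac
mmu-miR-223-3p: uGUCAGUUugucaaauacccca
mmu-miR-223-5p: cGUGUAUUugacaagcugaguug
mmu-miR-150-3p: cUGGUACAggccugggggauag
The 10 sequences have 10 distinct seeds, so no members form a seed family by these sequences. The other arm of Mir150 was not in the table and was not compared. No other mature miRNA in the table shares a full seed with any of the 10 sequences. Over the shorter stretch of bases 2 to 7, mmu-miR-144-3p matches mmu-miR-101a-3p, and the gene Mir101a had 285 CPM in replicate 1 and 241 in replicate 2. Other matches over bases 2 to 7 were of mmu-miR-342-5p with mmu-miR-6931-5p and mmu-miR-6943-5p, and of mmu-miR-223-3p with mmu-miR-344f-5p. Their genes were rarer, with Mir344f at 3.07 and 3.08 CPM and Mir6931 and Mir6943 at or below 0.921 CPM. CPM is the count of a gene scaled to 1000000 counts on the strand of a gene. The deposited values count reads per gene, so the arms of a hairpin cannot be told apart in what follows.

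The red-cell hairpins lie side by side on chromosome 11 and are known to be cut from 1 primary transcript under control of the erythroid factor GATA1. In mm10, Mir144 spans chr11:78073005-78073070 and Mir451a spans chr11:78073170-78073241, both on the plus strand, with 99 bases between them. Neither lies in a host gene in GENCODE M21, but Mir451b is annotated on the minus strand over the same bases as Mir451a. The hairpins are shown because their processing is known to differ. Mir451a is cut by Argonaute 2 without Dicer, and Mir144 follows the usual Dicer route. Capitals mark the mature sequences.
Mir451a: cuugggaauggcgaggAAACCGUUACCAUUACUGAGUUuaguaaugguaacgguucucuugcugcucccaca
Mir144: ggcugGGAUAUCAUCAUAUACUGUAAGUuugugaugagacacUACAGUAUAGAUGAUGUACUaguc
In the fold predicted by RNAfold the terminal loop of Mir451a covers bases 35 to 38. Its single mature sequence runs from base 17 to base 38 and ends with that loop. In Mir144 the loop covers bases 31 to 36, and the mature sequences lie on either side of it, at bases 6 to 28 and 43 to 62.

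Mir451a, the most abundant miRNA of mature red cells, was the leading erythroid member. It had 1958 counts, or 601 CPM (95% exact interval 575 to 629), in replicate 1, and 2526 counts, or 707 CPM (679 to 735), in replicate 2. The intervals of the libraries did not overlap, and replicate 2 was the higher. The mean was 654 ± 74 CPM (SD, n = 2), and Mir451a took place 121 of 1973 genes. Mir144 had 195 counts, or 59.9 CPM (51.8 to 68.9), in replicate 1 and 190 counts, or 53.2 CPM (45.9 to 61.3), in replicate 2. Its mean was 56.5 ± 4.8 CPM (SD, n = 2), at place 245, and its intervals overlapped. Mir144 lay above 38.9% of the 401 genes.

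The neighbours thus differed in level although their hairpins lie together. Mir451a exceeded Mir144 by 10.04-fold in replicate 1 and 13.3-fold in replicate 2, a mean difference of 3.51 ± 0.28 on the log2(CPM + 1) scale (SD, n = 2). Per base of hairpin the folds were 9.20 and 12.2. Of the counts of the pair, Mir451a held 90.9% in replicate 1 (95% exact interval 89.7 to 92.1) and 93.0% in replicate 2 (92.0 to 93.9), and these intervals overlap slightly. The pair together held 0.0661% of all gene counts in replicate 1 and 0.0760% in replicate 2.

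Mir342 stood far above the other leukocyte genes. It lies on chromosome 12 at chr12:108658620-108658718, plus strand, in an intron of Evl on the same strand. Evl encodes a regulator of actin filaments that is active in blood cells and in neurons. Mir342 had 26671 counts, or 8191 CPM (95% exact interval 8094 to 8290), in replicate 1 and 28680 counts, or 8023 CPM (7931 to 8117), in replicate 2. Both libraries lie close together around a mean of 8107 ± 119 CPM (SD, n = 2), at place 28 of 1973. The level was above that of 93.0% of the 401 genes whose mean count was at least 10.

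Mir155 and Mir223 were expressed at levels between those of Mir451a and Mir144. Mir155, which is induced in activated lymphocytes and macrophages, lies at chr16:84714140-84714204, plus strand, in an exon of its long non-coding host Mir155hg. It had 1358 counts, or 417 CPM (95% exact interval 395 to 440), in replicate 1 and 1366 counts, or 382 CPM (362 to 403), in replicate 2. The mean was 400 ± 25 CPM (SD, n = 2), at place 150, and the intervals overlapped. Mir223, a miRNA of granulocytes and other myeloid cells, lies on chromosome X at chrX:96242817-96242926, plus strand, in an exon of the non-coding gene F630028O10Rik. It had 987 counts, or 303 CPM (285 to 323), in replicate 1 and 924 counts, or 259 CPM (242 to 276), in replicate 2. The mean was 281 ± 32 CPM (SD, n = 2), at place 174, and replicate 1 was the higher with intervals that did not overlap. Mir155 lay above 62.6% of the 401 genes whose mean count was at least 10, and Mir223 above 56.6%.

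Mir150, a miRNA of mature B and T lymphocytes, was barely counted. It is intergenic at chr7:45121757-45121821, plus strand. Replicate 1 had 12 counts, or 3.69 CPM (95% exact interval 1.90 to 6.44), and replicate 2 had 4 counts, or 1.12 CPM (0.305 to 2.87). The intervals overlap. A count of 0 would allow up to 3 counts, or 0.921 CPM for replicate 1 and 0.839 CPM for replicate 2. The interval of replicate 1 lies above that limit, while that of replicate 2 includes it. Reads on the opposite strand of Mir150 numbered 3 and 5, so the strand of the gene did not stand clear of the other in replicate 2. The other 5 members had no opposite-strand read in either library.

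**Figure D1:**
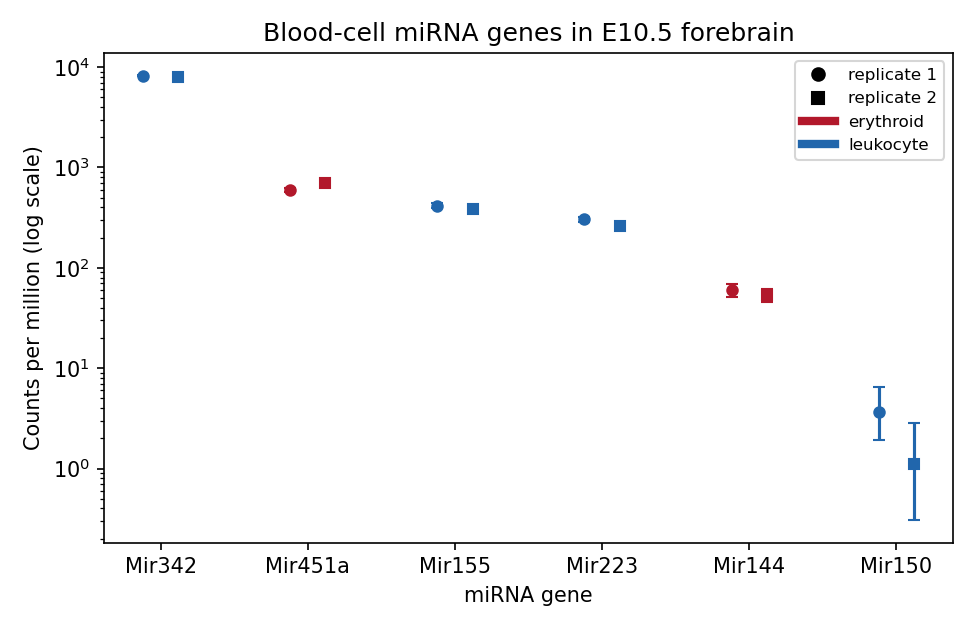
Level of each blood-cell miRNA gene, in CPM on a log axis, with circles for replicate 1 and squares for replicate 2. Bars are 95% exact intervals, which cover counting error only. Mir342 sits near 8107 CPM, 4 genes lie between 53.2 and 707 CPM, and Mir150 is at 3.69 and 1.12 CPM with wide bars.

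The 6 levels formed the same order in both libraries, Mir342, Mir451a, Mir155, Mir223, Mir144 and Mir150. Each gene lay above the next with intervals that did not overlap in either library. The intervals hold counting error only. How readily each sequence enters a library was not tested, so this is an order of counted reads. By CPM, Mir342 exceeded Mir451a by 13.6-fold in replicate 1 and 11.4-fold in replicate 2. The steps from Mir451a to Mir155 (1.44-fold and 1.85-fold) and from Mir155 to Mir223 (1.38-fold and 1.48-fold) were the narrowest. Per base of annotated hairpin the order was the same. On that scale Mir342 exceeded Mir451a by 9.91-fold and 8.26-fold, and Mir155 exceeded Mir223 by 2.33-fold and 2.50-fold. Mir223 exceeded Mir144 by 5.06-fold and 4.86-fold by CPM. The step down to Mir150 was 16.2-fold in replicate 1 and 47.5-fold in replicate 2, where it rests on 4 counts.

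**Figure D2:**
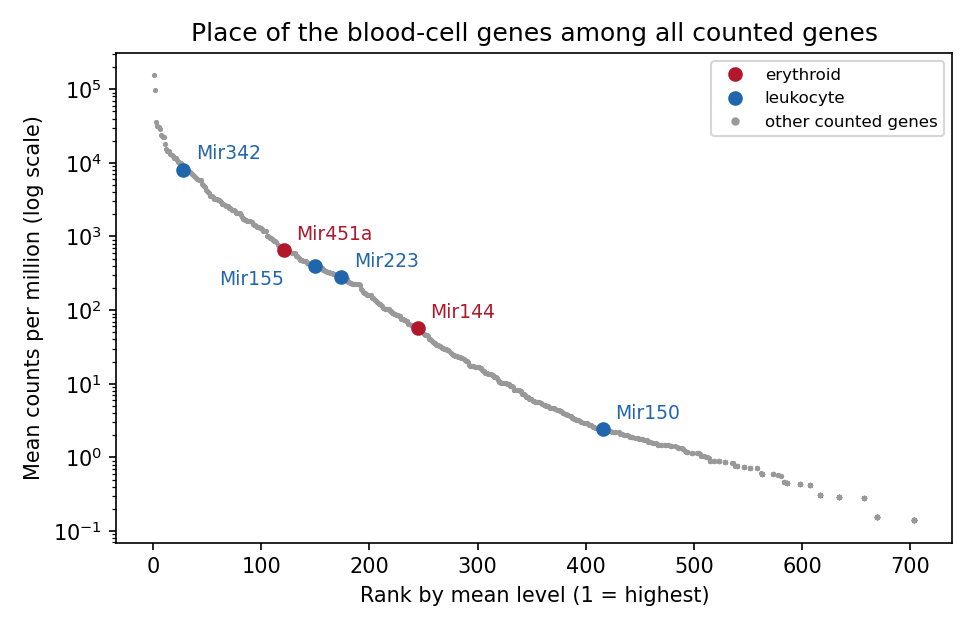
Mean level of every counted gene, in CPM on a log axis, against its place in the order of levels, with the 6 blood-cell genes in colour. Mir342 lies at place 28, Mir451a, Mir155 and Mir223 between places 121 and 174, Mir144 at 245 and Mir150 at 416.

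As groups, the leukocyte genes held more counts than the red-cell pair through Mir342. The 4 leukocyte genes held 0.891% of all gene counts in replicate 1 (95% exact interval 0.881 to 0.902) and 0.867% in replicate 2 (0.857 to 0.876). Mir342 made up 91.9% and 92.6% of that share. Without Mir342 the leukocyte share was 0.0724% in replicate 1 (0.0695 to 0.0754) and 0.0642% in replicate 2 (0.0616 to 0.0669). The red-cell pair was below that value in replicate 1, at 0.0661% (0.0634 to 0.0690), and above it in replicate 2, at 0.0760% (0.0732 to 0.0789). The order of these groups therefore differed between the libraries.

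Counts of single members were then compared between the libraries. Each gene's counts were set against the sizes of the libraries in a two-sided exact binomial test over 401 genes. Library sizes carried TMM factors, which balance the bulk of the genes. It takes in no error beyond counting, and it sets these 2 libraries against each other, not conditions. It called 43.4% of all tested genes, so a call is common here. Of the 5 members tested, 2 were called, which is near that background. Mir150 had too few counts to enter the test.

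Mir451a was lower in replicate 1, with a log2 ratio of replicate 1 over replicate 2 of −0.26 (95% interval −0.35 to −0.18, adjusted p = 5.36e-09, exact binomial test). Mir223 was higher in replicate 1, with a log2 ratio of 0.20 (0.07 to 0.33, adjusted p = 0.00728, exact binomial test). Each is a modest difference, since 33.2% of the tested genes had a log2 ratio larger in size than that of Mir451a and 42.9% one larger than that of Mir223. The neighbour of Mir451a, Mir144, did not pass, with a log2 ratio of 0.14 (−0.15 to 0.44, adjusted p = 0.539, exact binomial test). Its interval does not overlap that of Mir451a. Mir155 had a log2 ratio of 0.10 (−0.01 to 0.20) and did not pass (adjusted p = 0.165, exact binomial test). The log2 ratio of Mir342 was −0.00089 (adjusted p = 0.991, exact binomial test), and its interval, −0.025 to 0.023, was the narrowest of the tested members. With total-count or DESeq2 scaling Mir342 passed the threshold with a log2 ratio of 0.030. The median log2 ratio was 0.10 over the 5 tested members and −0.03 over all tested genes.

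**Figure D3:**
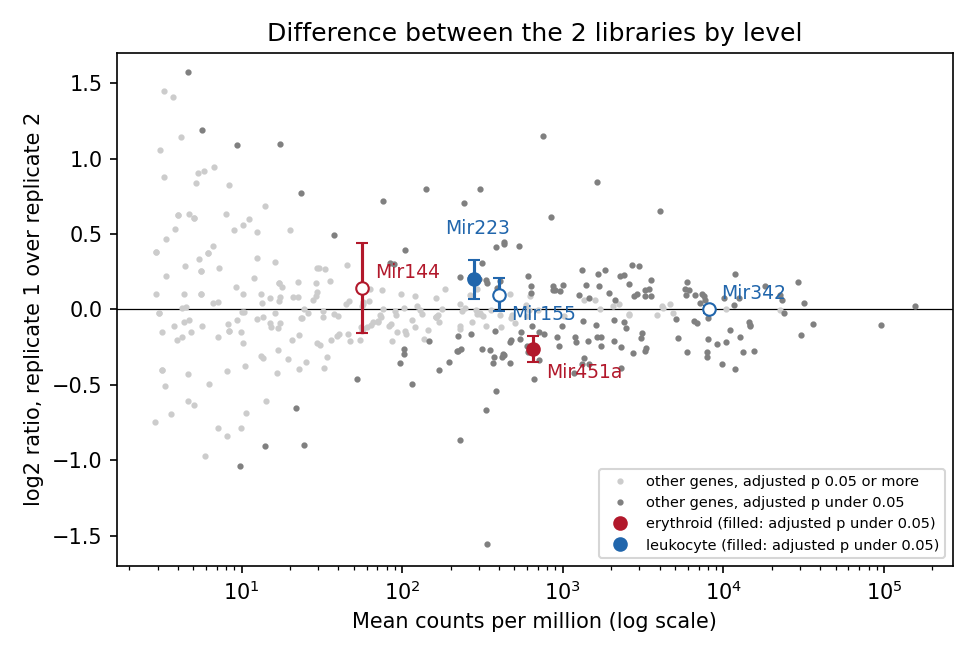
Log2 ratio of replicate 1 over replicate 2 against mean level on a log axis for the tested genes, of which 3 lie outside the plotted range. Coloured points are the 5 tested blood-cell genes with 95% intervals, filled where the adjusted p was under 0.05. Mir451a lies at −0.26 and Mir223 at 0.20, within the band of the grey genes.

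Other miRNAs of blood cells were mostly rare or had no row. Of 4 further erythroid names, only Mir486a was counted (as Mir486, in an intron of the red-cell ankyrin gene Ank1), with 32.2 CPM in replicate 1 and 31.9 in replicate 2. Its hairpin and that of Mir3107, for which RefSeq gives mir-486b as another name, are annotated on opposite strands of the same place. Of the 109 stretches of 20 bases in Mir486, 6 occur on both strands there, and a read with several matching places was assigned to none. Its level is therefore a lower limit. Read in the same direction, no stretch of 20 bases in the members' hairpins is found in another annotated miRNA gene. Mir451b, on the other strand over Mir451a, falls outside this search. The rest of the genome was not searched. Of 6 further leukocyte names, Mir146a, induced in activated myeloid cells and counted as Mir146, had 59 and 60 counts, or 18.1 and 16.8 CPM. Mir147 had 16.3 and 16.2 CPM, Mir146b had 4 and 6 counts, and Mir511, known from macrophages, had 2 and 8 counts. Mir146a and Mir147 were tested and not called (adjusted p = 0.920 and 1, exact binomial test). Mir142 had no row and was not counted.

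The locus of Mir142, one of the most abundant miRNAs of all white blood cells, lies within a gene that had reads on its opposite strand. Mir142b, on the minus strand at chr11:87756841-87756955, had 0 counts of its own in both libraries. Reads on its opposite strand, which is the strand of Mir142 (chr11:87756864-87756927), numbered 4303 in replicate 1 and 3688 in replicate 2. On the CPM scale that is 1322 (95% exact interval 1282 to 1362) and 1032 (999 to 1066), higher in replicate 1. They exceeded the counts of Mir155 by 3.17-fold and 2.70-fold and those of Mir223 by 4.36-fold and 3.99-fold. They came to 0.161 and 0.129 times those of Mir342. The mature miRNAs of that strand are shown because they are annotated within the span of Mir142b. The deposited values give neither positions nor sequences of reads, so whether the reads hold either of them was not tested.
mmu-miR-142a-5p: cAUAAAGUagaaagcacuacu
mmu-miR-142a-3p: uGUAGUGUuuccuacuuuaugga

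Vessel and neural miRNAs were read beside the blood genes in the same libraries. Mir126a, of the endothelium, had 29029 CPM in replicate 1 and 31930 in replicate 2. It exceeded Mir451a by 48.3-fold and 45.2-fold and Mir342 by 3.54-fold and 3.98-fold. Mir221 and Mir222, a cluster active in endothelial cells and early blood progenitors, had 564 and 390 CPM in replicate 1, and 759 and 471 in the other library. Of the 5 tested vessel genes, 3 were called lower in replicate 1, against 23.7% of all tested genes. They were Mir126a (log2 ratio −0.17), Mir221 (−0.46) and Mir222 (−0.30). Mir451a was also lower in replicate 1, while its neighbour Mir144 had a log2 ratio of 0.14 and was not called. Mir143 of smooth muscle was higher in replicate 1 (0.20), and Mir145a was not called (−0.12). Mir145b had no count. The summed level of the vessel list was 33878 CPM in replicate 1 and 36500 in replicate 2, most of it from Mir126a. The part of the vessel list in the difference of Mir451a was not tested.

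Of 8 tested neural genes, 5 were higher in replicate 1 and none was lower, with a median log2 ratio of 0.17. Of all tested genes, 19.7% were called higher in replicate 1 and 23.7% lower. Mir92b, known from neural progenitors, had 19407 and 17048 CPM, which was 2.37-fold and 2.12-fold the level of Mir342. The neuronal miRNA Mir137 had 502 and 359 CPM, and Mir9-3, whose mature miRNA is made from several loci and is counted only in part, had 363 and 315 CPM. Mir223 had the sign of the median of the neural list, though not every gene of that list had it. The sign was shared by Mir144 (0.14) and Mir155 (0.10), neither of them called, and by the vessel gene Mir143 (0.20). The opposite-strand reads at Mir142b, which were not tested, had it too (0.33). Mir451a had the other sign, as did the vessel genes Mir126a, Mir221 and Mir222. Mir342, at −0.00089, changed sign with the scaling. With a median log2 ratio of −0.03 over all tested genes, neither sign was rare. The neural list summed to 20395 CPM in replicate 1 and 17819 in replicate 2, most of it from Mir92b. Mir9-1 had no row and Mir9-3 is counted only in part, so the sum is a lower limit. The part of the neural list in the difference of Mir223 was not tested.

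Liver and muscle miRNAs, read as markers of other tissues, were below the red-cell pair in sum, at 129 CPM in replicate 1 and 125 in replicate 2. They were above Mir144 alone, which had 59.9 and 53.2 CPM. Their highest genes were Mir192 (70.8 ± 2.0 CPM), Mir208b (28.0 ± 1.2 CPM) and Mir499 (10.4 ± 0.064 CPM; SD, n = 2). Of the 9 genes with a row, 3 were at 0 in both libraries (Mir1a-1, Mir133a-1 and Mir133a-2). Like that of Mir9-3, the mature miRNAs of these 3 genes are made from several loci, and such reads can go uncounted. A count of 0 therefore does not show that they were absent. The sum of the list is a lower limit, and its place below the red-cell pair holds for counted reads only. None of the 5 tested genes of this list was called by the exact binomial test, against 43.4% of all tested genes. The lowest unadjusted p, of Mir208a, was 0.0919. Counts of these 5 genes ran only from 13 to 258 per library, so modest differences could be missed. These lists are short, and counts over them describe these genes only.

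**Figure D4:**
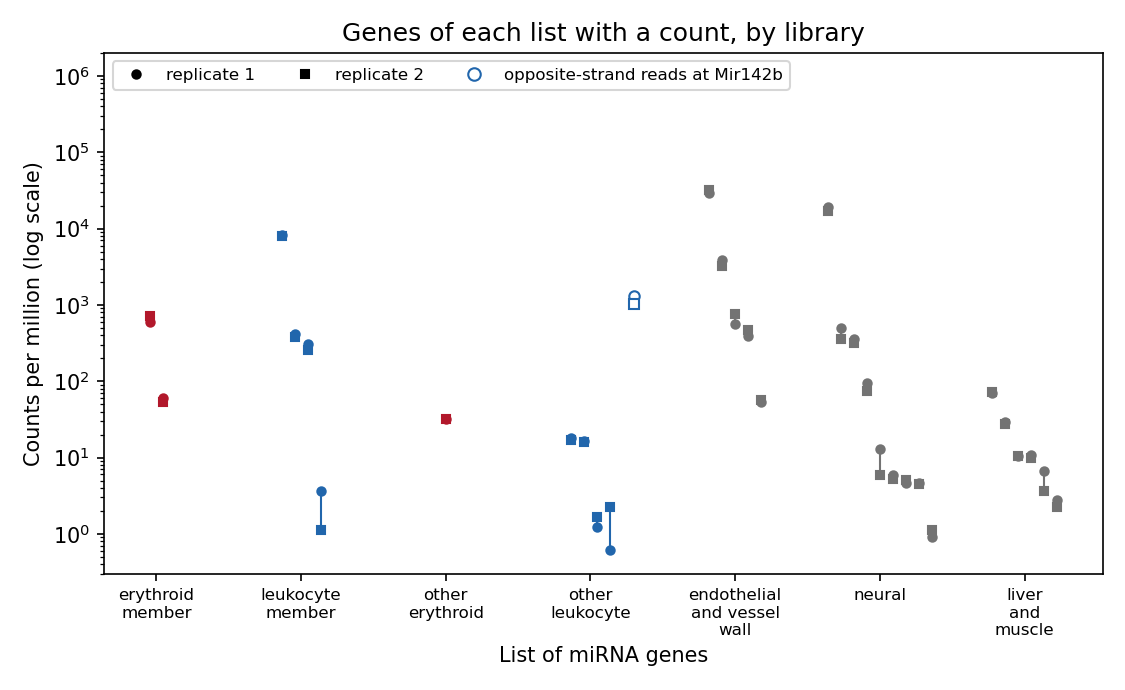
Level of each listed gene with a count, in CPM on a log axis, with circles for replicate 1 and squares for replicate 2. Open symbols are the opposite-strand reads at Mir142b, at 1322 and 1032 CPM. The endothelial and neural lists each have 1 gene above Mir342, namely Mir126a and Mir92b.

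The genes most like each member in level were found by the distance between log2(CPM + 1) values over the 2 libraries. For Mir342 the nearest gene was Mir21a, a broadly expressed miRNA that is also high in myeloid cells, at 7963 and 8114 CPM (distance 0.044). Mir671 (0.11) and the vessel gene Mir221 (0.14) were nearest to Mir451a. Mir144 lay closest to Mir7688 (0.063) and Mir672 (0.075). Mir1306 (0.062) and Mir5099 (0.074) were nearest to Mir155, and Mir125b-2 (0.087) and Mir505 (0.10) to Mir223. The second gene for Mir342 was Mir652 (0.13). With 2 libraries this likeness is mainly one of mean level.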

How the data were processed

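Small RNA reads under 30 nt from 2 libraries of forebrain tissue were analysed from the raw counts per gene that the authors deposited. Per the file headers and notes deposited beside them, the assembly was mm10 and the genome annotation M4. What aligner and counter were used is not given in the sources used here. Counts on the strand of the gene were used, which made up 96.7% and 96.4% of those on either strand. The 4 tallies of reads given to no gene stayed out of library sizes. Symbols, positions and hosts came from GENCODE M21 on the same build (1894 of 1973 identifiers matched), and sequences from RefSeq.

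Counts were scaled to CPM. Library ratios used edgeR's TMM factors (version 4.0.16 in R 4.3.3) after adding 0.5 counts, and log2 levels had 1 CPM added. The exact binomial test took the 401 genes whose mean count reached 10, adjusted p-values over them by Benjamini and Hochberg's method, and called genes below 0.05. DESeq2 1.42.0 size factors were an alternative, and RNAfold 2.7.2 predicted the folds. Intervals are exact Clopper-Pearson at 95%. They and the floors hold counting error alone, because PCR copies of a molecule are not independent.

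The members and lists were chosen with earlier results of these data known. Named genes are the members, up to 3 leading genes of each marker list (all where 5 or fewer had a count), and the 2 genes nearest in level to each member with a mean count of 10. The genes of shared bases 2 to 7, the genes named at 0 or without a row, and Mir142b were named after their values were seen.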

Additional observations from a re-analysis of the deposited data

Results flagged for a closer look

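Reads on the opposite strand of listed genes lay outside the counts used, and 4 genes had more than 3 of them in both libraries, the number that a count of 0 allows. Mir142b had 4303 in replicate 1 and 3688 in replicate 2, against 0 on its own strand, and held 3.86% and 2.75% of all opposite-strand reads. The others were Mir486a with 20 and 17, Mir126a with 16 and 19, and Mir124a-3 with 20 and 14. Mir126a had 94521 and 114134 counts on its own strand, while Mir124a-3, whose mature miRNA is made from several loci, had 15 and 16.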

How the results depend on the processing

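The order of the members and the calls of Mir451a and Mir223 rest on 2 pools. The log2 difference between levels was rerun for Mir451a over Mir144, Mir342 over Mir155 and Mir342 over Mir451a, and none changed direction. With main differences of 3.51, 4.34 and 3.63, these pairs lie too far apart for that to test the order. The narrow steps from Mir451a to Mir155 and from Mir155 to Mir223 were not among them. Over all reads in the file, the erythroid share was 0.0266% and the leukocyte share 0.330%. Counts on either strand gave a leukocyte share of 0.849%. Chosen after seeing the data, the leukocyte share without Mir342 was 0.0683%, and with the opposite-strand reads at Mir142b it was 0.997%. Single libraries gave an erythroid share of 0.0661% to 0.0760% and a leukocyte share of 0.867% to 0.891%. The log2 ratio of Mir342 turned to 0.030 with total-count scaling (adjusted p = 0.0352, exact binomial test) and to 0.030 with DESeq2 size factors (adjusted p = 0.0376, exact binomial test), so that 3 members were called in place of 2. The scaling alone moved the median of all genes from −0.03 to 0.0034. Calls among all genes ran from 163 to 182. The calls of Mir451a and Mir223 held under all 6 alternatives run on their ratio, by the exact binomial test, with adjusted p from 3.66e-09 to 3.17e-07 for Mir451a and from 0.00162 to 0.0134 for Mir223. Most of these alternatives could change little. The pseudocount does not enter the test, and the filters alter only the adjustment of p. Counting either strand left the counts of both genes unchanged. Mir150 entered the test without a filter (adjusted p = 0.155) and with counts on either strand (adjusted p = 0.366), and passed in neither exact binomial test. At a mean count of 100 it gave no value. No paired analysis was possible because the libraries form 1 group. Depth limits what can be said of Mir150, with 12 and 4 counts.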
